A study of Mus musculus with 42 samples.

Results

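Olfr168, Olfr169, Olfr170 and Olfr171 are 4 neighbouring olfactory receptor genes on mouse chromosome 16, out of 1170 genes with an olfactory receptor symbol and 44674 genes in the table. They were picked because their values in this experiment stood out, so the values that picked them are given as a description, without a test, and p-values are kept for other genes. All 4 passed the filter on low counts, which kept 908 receptors. Male C57BL/6NCrl mice aged 8 to 12 weeks spent 1 h without an added odour (no odour) or with the odour of a normal chow diet (NCD), a bacon-flavoured diet (BFD, labelled Bacon) or a lard-based high-fat diet (HFD). The main olfactory epithelia of 4 mice were pooled, with 5 pools for no odour, 6 for NCD, 5 for BFD and 5 for HFD. From each of the 21 pools came a pS6 pulldown library, made from ribosomes captured with an antibody against the phosphorylated ribosomal protein S6, and an input library of the starting material. The labels name the strain as the only genotype, for all groups alike. Replicates are separate pools of animals.

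Each mature olfactory sensory neuron expresses a single receptor gene from a single allele, so the RNA of one receptor comes from a small, scattered set of cells. Odour-driven firing leads to phosphorylation of S6 on the ribosomes of a neuron, and the pulldown therefore enriches the RNA of neurons that were recently active. A receptor whose neurons answer an odour shows a higher pulldown level with its input level little altered.

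The 4 genes lie next to each other on the minus strand of GRCm38 chromosome 16 with no other annotated gene between them. Olfr168 (ENSMUSG00000061361) is at chr16:19529274-19535555, Olfr169 (ENSMUSG00000068535) at chr16:19564889-19571809, Olfr170 (ENSMUSG00000062245) at chr16:19605696-19611882 and Olfr171 (ENSMUSG00000060480) at chr16:19623930-19629916. Together they span 100643 bases, and the gaps between them measure 29333, 33886 and 12047 bases. Each is protein coding, with its whole coding sequence of 939, 942, 942 and 945 bases (stop codon included) in 1 exon. The other receptors within 1 Mb are Olfr164, Olfr165, Olfr166 and Olfr167, all on the side of Olfr168, of which Olfr166 lies on the plus strand. Chromosome 16 holds 36 receptor genes in all.

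By sequence, the 4 genes fell into a trio and a gene apart. Over aligned coding bases, Olfr169 was 96.2% identical to Olfr170 (36 differences) and 96.4% identical to Olfr171 (34 differences), and Olfr170 and Olfr171 were 97.5% identical (24 differences). Olfr168 was 66.8% to 67.9% identical to the trio but 95.7% identical (40 differences) to Olfr166, which is transcribed in the opposite direction on the far side of Olfr167. Among 1129 receptors compared, no gene outside the trio was more than 69.5% identical to any of its 3 genes. The stretch below covers 120 coding bases of the trio. Olfr169 and Olfr170 differ at all 9 marked positions, more for the length than their 36 differences over 939 aligned coding bases. Capitals mark the 9 positions at which the 3 genes are not all alike, and the stretches are at chr16:19566285-19566404, chr16:19606070-19606189 and chr16:19624502-19624621, read 5′ to 3′ on the minus strand.
Olfr169: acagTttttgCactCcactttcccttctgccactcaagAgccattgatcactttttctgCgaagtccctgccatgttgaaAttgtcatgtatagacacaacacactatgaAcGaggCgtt
Olfr170: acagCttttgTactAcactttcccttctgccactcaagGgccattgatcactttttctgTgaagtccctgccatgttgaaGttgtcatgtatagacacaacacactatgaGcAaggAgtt
Olfr171: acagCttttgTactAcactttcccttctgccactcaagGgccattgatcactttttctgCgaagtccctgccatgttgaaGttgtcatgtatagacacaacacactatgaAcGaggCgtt

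The longest run that the 3 genes share without any difference has 153 bases, longer than a sequenced read of this experiment, so a read pair that falls wholly inside it cannot be placed by sequence. It covers coding bases 190 to 342 of Olfr169 (chr16:19566540-19566692) and of Olfr170 (chr16:19606325-19606477) and bases 193 to 345 of Olfr171 (chr16:19624757-19624909).
Shared run: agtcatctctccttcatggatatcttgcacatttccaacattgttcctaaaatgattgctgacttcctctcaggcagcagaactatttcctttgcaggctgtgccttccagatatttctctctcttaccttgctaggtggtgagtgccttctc

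The first 120 coding bases of Olfr168 (chr16:19530799-19530918, minus strand) and of Olfr166 (chr16:19486840-19486959, plus strand) are shown. Olfr166 was chosen because it is the only gene with which Olfr168 shares long words. The stretch itself is not where those words lie, as no run between capitals reaches the 31 bases of the words counted below. The longest run without a difference has 176 bases and covers coding bases 479 to 654 of Olfr168. Capitals mark the 15 positions that differ, more for the length than the 40 differences over 939 aligned coding bases.
Olfr168: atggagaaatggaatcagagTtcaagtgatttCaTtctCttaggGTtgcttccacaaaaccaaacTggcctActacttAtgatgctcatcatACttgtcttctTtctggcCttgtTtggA
Olfr166: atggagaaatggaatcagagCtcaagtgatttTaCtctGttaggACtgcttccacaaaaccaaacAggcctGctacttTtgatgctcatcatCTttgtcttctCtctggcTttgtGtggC

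The share of sequence that could be confused was counted as 31-base words of the transcripts found in another gene. Olfr170 shared 56.8% of its words, Olfr171 43.7% and Olfr169 28.2%, in each case with the other 2 genes of the trio and with no gene outside it. Olfr168 shared 23.6% of its words, all with Olfr166 and none with the trio. With words of 75 bases, the length of a sequenced read, the shares were 26.4% for Olfr170, 17.9% for Olfr171, 12.2% for Olfr169 and 12.8% for Olfr168. The deposited counts of all 4 genes were not whole in any of the 42 libraries, against 30.9% of the values over all genes, which is the mark of reads divided among genes by estimation. Values of the single genes of the trio are therefore uncertain within their sum, and those of Olfr168 within its sum with Olfr166.

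RefSeq promoter windows of GRCm38.p6 were at hand for Olfr169 and Olfr170, 2 of the 4 genes. In the 250 bases before the RefSeq start, searched on both strands, Olfr169 held 1 match of the homeobox core TAATTA, and Olfr170 held none; the share of receptor windows with a match was 18.0% of 948. Neither window held CCCNNGGG, found in 2.74% of receptor windows. Both RefSeq starts lie at the start codon, inside the longer gene models used for counting, so these windows may not be the ones upstream of transcription.

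The libraries held 24839555 to 36781553 counts each, and the ranges of depth overlapped between the odour groups. Markers of mature sensory neurons were abundant in all inputs (median 6032 CPM for Omp, where CPM are counts per library total scaled by edgeR), and the vomeronasal markers Trpc2 and Vmn2r1 had medians of 0.851 and 0.151 CPM. The summed level of the gland and respiratory markers Bpifb9b, Muc5b and Foxj1 in the pulldowns ranged from 6009 to 7673 CPM without odour, 12363 to 13454 with NCD, 15336 to 22389 with BFD and 16264 to 17648 with HFD odour. Over all pulldowns Bpifb9b ran from 2714 to 17886 CPM, Muc5b from 2569 to 4316 and Foxj1 from 147 to 240. The range of the sum is thus mostly that of Bpifb9b. The share of ribosomal RNA in the inputs was 19.2% to 28.1% without odour and 9.38% to 18.9% in the odour groups. The mature sensory neuron markers Omp, Gnal, Adcy3, Cnga2 and Stoml3 summed to 12936 to 19110 CPM (median 13614) in the pulldowns without odour, with medians of 20819 with NCD, 21165 with BFD and 20038 with HFD odour, so their sum moved with odour as well. Stoml3 (median 8070 CPM over all pulldowns) and Omp (7726 CPM) make up most of this sum, which does not show that each marker moved. The part of these shifts in the comparisons with no odour was not tested. The pool BFD replicate 1 stood apart from the rest. Over all tested genes, the SD of its log2 pulldown-to-input ratio was 0.601, against 0.742 to 1.08 in the other 20 pools, so that its pulldown was closer to its input. The supporting-cell markers Cyp2g1, Cyp1a2 and Ermn summed to 2457 CPM in its pulldown and to at most 1685 CPM in the other BFD pools. The fitted BFD values of the 4 receptors and of other named genes are also given without this pool.

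**Figure D1:**
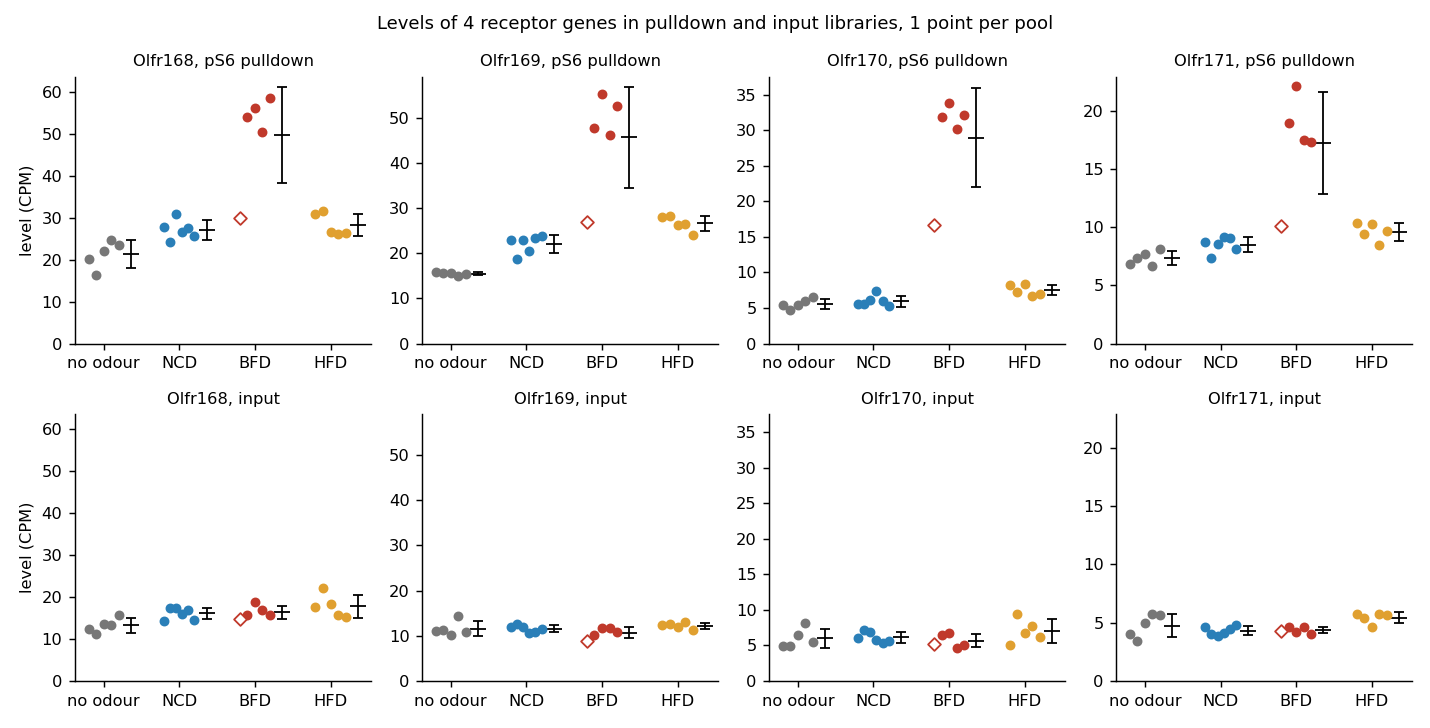
Levels of Olfr168, Olfr169, Olfr170 and Olfr171 in CPM (library-scaled counts, vertical axis) in the pS6 pulldowns (top) and inputs (bottom) of 5 no odour, 6 NCD, 5 BFD and 5 HFD pools, 1 point per pool, with the group mean ± SD beside them in black. The BFD pulldowns stand above the other groups, except that BFD replicate 1 (open diamond) does so for Olfr170 but not for the other 3 genes, while the groups lie closer together in the inputs, where Olfr171 with HFD (4.65 to 5.72 CPM) is above Olfr171 with BFD (4.04 to 4.61 CPM).

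Olfr170 showed the widest gap between BFD odour and everything else. Its pulldown level was 5.42, 4.74, 5.36, 5.92 and 6.55 CPM in the 5 pools without odour, and 5.31 to 7.39 CPM (median 5.74) in the 6 NCD pools. With BFD odour it was 16.7, 31.9, 33.8, 30.2 and 32.1 CPM, and with HFD odour 8.25, 7.26, 8.41, 6.74 and 7.02 CPM. Every BFD pool, replicate 1 included, was above every pool of the other groups, and the HFD pools were above all pools without odour but overlapped the NCD pools. Among 908 receptors, every BFD pulldown was above every NCD pulldown for 13 (1.43%) and above every HFD pulldown for 29 (3.19%). Every BFD pulldown was above every pulldown without odour for 88 (9.69%), and every HFD pulldown was so for 18.5% of the 908.

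The input levels of Olfr170 did not follow this pattern. They were 4.96, 4.95, 6.40, 8.12 and 5.49 CPM without odour, 5.27 to 7.11 CPM (median 5.91) with NCD, 5.24, 6.50, 6.71, 4.67 and 5.11 CPM with BFD and 5.02, 9.48, 6.72, 7.69 and 6.12 CPM with HFD odour, and all groups overlapped. The log2 of pulldown over input was thus −0.08 ± 0.28 (SD, n = 5) without odour, −0.04 ± 0.26 (n = 6) with NCD, 2.32 ± 0.41 (n = 5) with BFD and 0.13 ± 0.43 (n = 5) with HFD. In the model fitted over all genes, the log2 fold change of this ratio over no odour was 2.41 (SE 0.20, 5.32-fold) with BFD, 0.04 (SE 0.20) with NCD and 0.20 (SE 0.21) with HFD. Without BFD replicate 1 the BFD value was 2.57.

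In all 4 members the mean pulldown level rose in the order no odour, NCD, HFD and BFD. Olfr169 was the only member whose HFD and NCD pulldown levels did not overlap. Its pulldown levels without odour lay close together, at 15.8, 15.7, 15.6, 15.0 and 15.3 CPM. They were 18.8 to 23.8 CPM (median 22.9) with NCD, 26.8, 47.6, 55.2, 46.2 and 52.6 CPM with BFD and 27.9, 28.1, 26.2, 26.5 and 24.1 CPM with HFD odour. All pools of each diet were above all pools without odour, all HFD pools were above all NCD pools, and BFD replicate 1 fell within the HFD range while the other 4 BFD pools stood above it. Such a gap over the pools without odour was found in pulldown levels for 119 receptors (13.1%) with NCD, 88 (9.69%) with BFD and 18.5% of the 908 with HFD, and a gap of HFD over NCD for 36 (3.96%).

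In the inputs Olfr169 ranged from 10.2 to 14.3 CPM without odour, 10.6 to 12.7 with NCD, 8.81 to 11.8 with BFD and 11.2 to 13.0 with HFD odour. The log2 ratio was 0.43 ± 0.21 (SD, n = 5) without odour, 0.92 ± 0.19 (n = 6) with NCD, 2.05 ± 0.28 (n = 5) with BFD and 1.12 ± 0.06 (n = 5) with HFD, with a no odour value of 0.07 in replicate 4 that lay apart from the other pools of its group. The fitted log2 fold change over no odour was 0.49 (SE 0.12, 1.41-fold) with NCD, 1.63 (SE 0.13, 3.10-fold, and 1.74 without BFD replicate 1) with BFD and 0.69 (SE 0.13, 1.62-fold) with HFD. On the ratio, all HFD pools were above those without odour, as for 79 receptors (8.7%), NCD and HFD overlapped, and NCD overlapped no odour by 1 pool, replicate 2 at 0.57.

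Olfr171, the third gene of the trio, had pulldown levels of 6.79, 7.31, 7.68, 6.67 and 8.10 CPM without odour and of 7.38 to 9.11 CPM (median 8.65) with NCD. With BFD odour they were 10.1, 18.9, 22.1, 17.5 and 17.3 CPM, and with HFD odour 10.3, 9.39, 10.2, 8.43 and 9.66 CPM. Here BFD replicate 1 lay among the HFD pools, and 4 of 5 BFD pools stood above all others.

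The log2 ratio of Olfr171 was 0.64 ± 0.31 (SD, n = 5) without odour, 0.97 ± 0.15 (n = 6) with NCD, 1.92 ± 0.43 (n = 5) with BFD and 0.82 ± 0.21 (n = 5) with HFD, and the BFD pools overlapped none of the other groups. The fitted log2 fold change over no odour was 0.35 (SE 0.17) with NCD, 1.31 (SE 0.18, 2.48-fold, and 1.48 without BFD replicate 1) with BFD and 0.19 (SE 0.18) with HFD odour. Olfr171 was also the only member with non-overlapping inputs in any comparison of 2 groups: its inputs were 4.65 to 5.72 CPM with HFD and 4.04 to 4.61 CPM with BFD odour. Among the 908 receptors, 11 (1.21%) had inputs that were higher with HFD than with BFD in every pool.

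Olfr168, the receptor that resembles Olfr166, had the highest pulldown levels of the 4 and the smallest fold. They were 20.03, 16.4, 21.98, 24.8 and 23.4 CPM without odour, 24.1 to 30.9 CPM (median 27.0) with NCD, 30.02, 54.03, 56.1, 50.3 and 58.4 CPM with BFD and 30.8, 31.5, 26.5, 26.0 and 26.3 CPM with HFD odour. BFD replicate 1 lay inside the NCD and HFD ranges, and the other 4 BFD pools were above all pools of the other groups.

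The inputs of Olfr168 were 11.1 to 15.8 CPM without odour, 14.3 to 17.4 with NCD, 14.8 to 18.7 with BFD and 15.2 to 22.1 with HFD odour, so the higher pulldown level with HFD odour went with a higher input. Set against the inputs, the log2 ratio was 0.68 ± 0.13 (SD, n = 5) without odour, 0.75 ± 0.16 (n = 6) with NCD, 1.57 ± 0.33 (n = 5) with BFD and 0.67 ± 0.14 (n = 5) with HFD. The fitted log2 fold change over no odour was 0.07 (SE 0.12) with NCD, 0.89 (SE 0.13, 1.85-fold, and 1.02 without BFD replicate 1) with BFD and −0.02 (SE 0.13) with HFD.

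**Figure D2:**
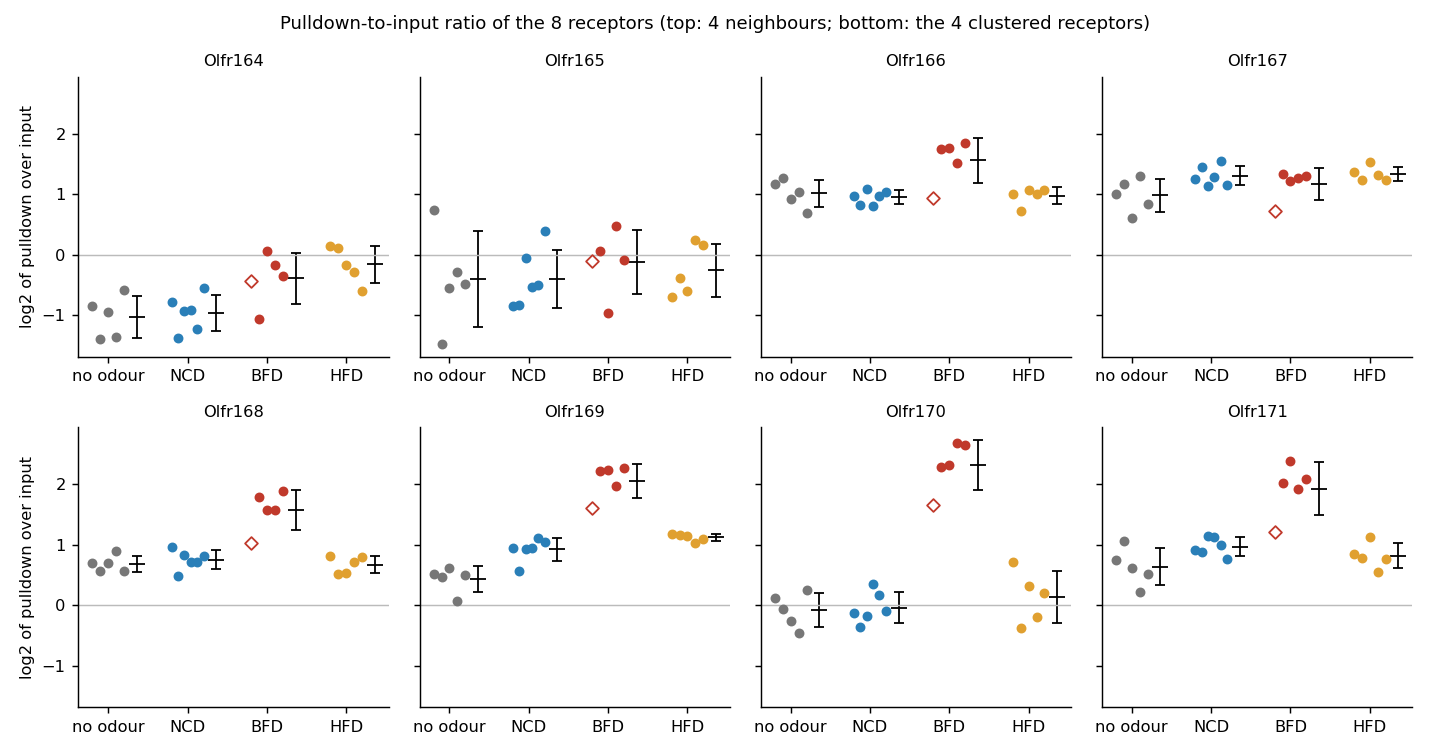
Log2 of pulldown over input (vertical axis) of Olfr164 to Olfr167 (top row) and Olfr168 to Olfr171 (bottom row) by odour group, 1 point per pool, with the group mean ± SD in black and BFD replicate 1 as an open diamond. In the bottom row all BFD points lie above the points of the other groups, and in the top row 4 of 5 BFD points of Olfr166 do.

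With BFD odour, the ratios of all 4 receptors were above those of every pool without odour, which held for 64 of the 908 receptors tested (7.05%). The same non-overlap was seen over NCD, where 7 of 908 receptors (0.771%) had it, and over HFD, where 23 of 908 (2.53%) were lower with HFD than with BFD in every pool. Since these comparisons picked the genes, nothing is read from the counts. In the fit, 34 of 908 receptors (3.74%) passed the threshold of an adjusted p under 0.001 as higher with BFD than without odour (46 without BFD replicate 1), 17 (1.87%) with NCD and 12 (1.32%) with HFD. The median log2 fold change of the 4 receptors over no odour was 1.47 with BFD, 0.21 with NCD and 0.20 with HFD, beside medians of 0.29, 0.23 and 0.27 over all receptors tested and of 0.00 with BFD over all genes. Ordered by fold change with BFD, they were number 4 (Olfr170), 18 (Olfr169), 45 (Olfr171) and 132 (Olfr168) of 908 receptors. With NCD odour their places were 271 to 582 and with HFD odour 201 to 652. Because all 3 comparisons share the 5 pools without odour, their values are not independent of each other.

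Between the diets themselves, the fitted difference of BFD over NCD was 2.37 (SE 0.19) for Olfr170, 1.14 (SE 0.12) for Olfr169, 0.96 (SE 0.17) for Olfr171 and 0.82 (SE 0.12) for Olfr168 on the log2 scale. HFD against BFD gave −2.21 (SE 0.20), −0.94 (SE 0.12), −1.12 (SE 0.17) and −0.91 (SE 0.12) in the same order of genes. HFD over NCD gave values from −0.15 (Olfr171, SE 0.17) to 0.20 (Olfr169, SE 0.12), and no member's ratios were apart in that comparison, against 14 receptors (1.54%) that were higher with HFD. Nor were they for NCD over no odour, against 65 receptors (7.16%). Without BFD replicate 1, the median of the 4 values was 1.61 in place of 1.47 for BFD over no odour, 1.19 in place of 1.05 for BFD over NCD and −1.17 in place of −1.03 for HFD over BFD.

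**Figure D3:**
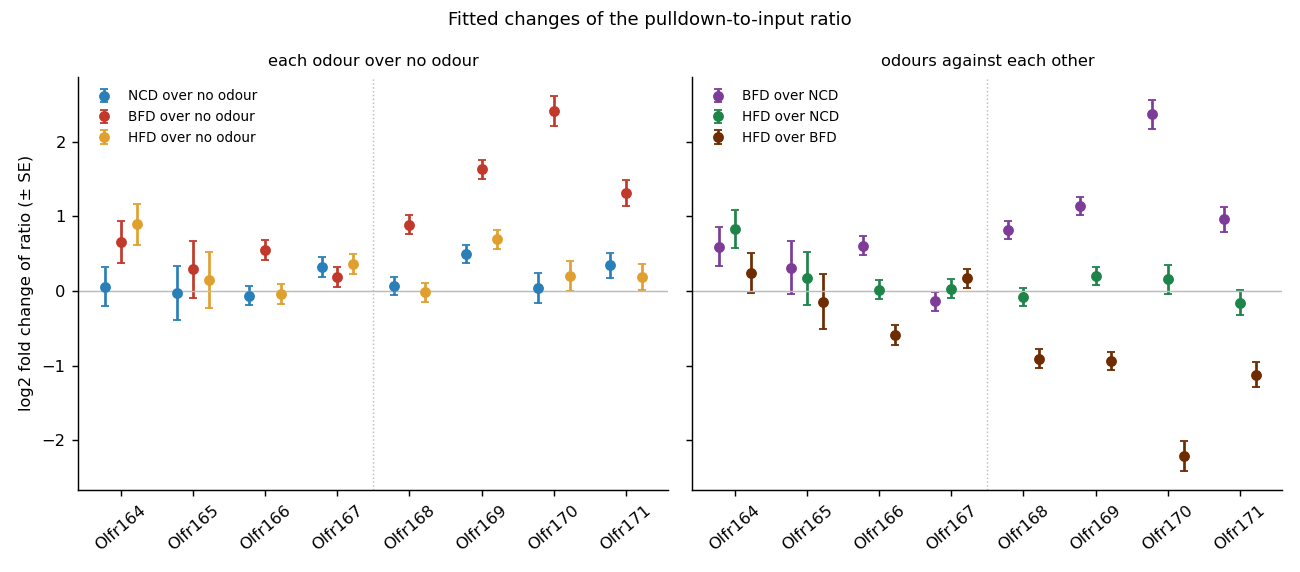
Fitted log2 fold change of the pulldown-to-input ratio with its SE (vertical axis) for the 4 neighbours and the 4 clustered receptors, for each odour over no odour (left) and between odours (right). Olfr170 shows the widest separation between BFD and the other odours, 2.41 over no odour against 0.04 with NCD and 0.20 with HFD.

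In absolute terms the 4 genes were among the more abundant receptors of the epithelium. Over the 21 inputs, the mean level per kilobase of exon was 7.20 CPM per kb for Olfr168, 4.63 for Olfr169, 4.31 for Olfr170 and 3.34 for Olfr171, against a median of 0.361 CPM per kb over 908 receptors, and their places by this level were 12, 26, 29 and 43. A bulk level cannot tell more neurons with a receptor from more RNA in each. In pulldowns without odour the order per kilobase was Olfr168 (9.67 ± 1.47 CPM per kb, SD, n = 5), Olfr169 (6.24 ± 0.13), Olfr171 (5.20 ± 0.43) and Olfr170 (3.89 ± 0.47). With BFD odour it was Olfr168 (22.6 ± 5.18, n = 5), Olfr170 (20.2 ± 4.85), Olfr169 (18.4 ± 4.50) and Olfr171 (12.2 ± 3.12), and the first 3 differed by less than their SD.

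Without any odour, the pulldown-to-input ratios of the 4 genes were above the receptor median. Their places were 129 (Olfr168), 145 (Olfr171), 191 (Olfr169) and 407 (Olfr170) of 908 receptors. Pulldown over input in the 5 pools without odour had a fitted log2 value of 0.69 (SE 0.09) for Olfr168, 0.63 (SE 0.13) for Olfr171, 0.43 (SE 0.09) for Olfr169 and −0.08 (SE 0.15) for Olfr170, beside a median of −0.19 over all receptors. Olfr170, the gene with the largest fold change with BFD, thus had the lowest ratio of the 4 without odour. The fold change is taken against this same ratio, so a lower ratio raises it, and no link is read from the pair.

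Summed over the 4 genes, the pulldown level was 44.2 to 53.3 CPM without odour, 55.8 to 68.5 with NCD, 83.7 to 167 with BFD and 67.0 to 77.3 with HFD, and the input sum stayed between 30.8 and 49.5 CPM over all 21 pools. As a share of all receptor counts in the pulldowns, the 4 genes made up 1.76% ± 0.06 (SD, n = 5) without odour, 1.81% ± 0.05 (n = 6) with NCD, 3.74% ± 0.54 (n = 5) with BFD and 1.97% ± 0.09 (n = 5) with HFD. In the inputs this share was 1.46% ± 0.04, 1.52% ± 0.07, 1.46% ± 0.07 and 1.63% ± 0.10. BFD replicate 1 had the lowest share of the BFD pulldowns, 2.79%, which was still above every pool of the other groups (at most 2.11%).

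The make-up of the sum also differed by odour. Olfr170 accounted for 19.97% to 20.95% of the 4-gene pulldown sum in the 5 BFD pools, replicate 1 included, and for 8.47% to 12.3% in the other 16. In the inputs its share was 12.3% to 17.6% with BFD and 12.4% to 19.6% in the other groups. The share of Olfr168 was lower with BFD, at 33.6% to 36.4% of the pulldown sum against 37.1% to 47.3% in the other 16 pools. The BFD replicate 1 pulldown was therefore lower in level than the other BFD pulldowns but alike in the proportions of the 4 genes. Shares are parts of a fixed whole, so a larger share of Olfr170 leaves less for the others. The mean pulldown level of Olfr168 itself was 49.8 CPM with BFD and 21.3 CPM without odour. Shares within the trio also depend on how reads were divided.

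Sums over the genes that share words do not depend on how reads were divided within them. For Olfr169, Olfr170 and Olfr171 together, the log2 ratio was 0.36 ± 0.22 (SD, n = 5) without odour, 0.73 ± 0.17 (n = 6) with NCD, 2.11 ± 0.32 (n = 5) with BFD and 0.83 ± 0.15 (n = 5) with HFD. For Olfr168 and Olfr166 together it was 0.88 ± 0.15, 0.86 ± 0.12, 1.57 ± 0.35 and 0.84 ± 0.13. In both sums the BFD mean was the highest, and in the second the BFD range reached down to 0.98, inside the range of the other groups, by way of replicate 1.

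The 4 neighbours in the same 1 Mb were not picked and could be tested. None of the 4 passed an adjusted p under 0.001 in any of the 6 comparisons between groups by edgeR. DESeq2 with the same design also called none, but gave no adjusted p for BFD over NCD. In edgeR, at an unadjusted p under 0.05 there were 1 with NCD, 2 with BFD and 2 with HFD over no odour, where 22.7%, 23.7% and 23.7% of the 908 receptors were under it. Their median log2 fold change over no odour was 0.02 with NCD, 0.42 with BFD and 0.25 with HFD.

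Olfr166, the near copy of Olfr168, came closest. Its pulldown level was 30.5 to 34.7 CPM without odour, 31.9 to 38.3 with NCD and 35.7 to 38.2 with HFD odour, and with BFD odour 37.6, 62.1, 67.7, 58.3 and 64.4 CPM. The BFD pools other than replicate 1 stood above all 16 pools of the other groups. The log2 fold change of its ratio with BFD over no odour was 0.55 (SE 0.13, edgeR adjusted p = 0.0043), and over NCD 0.61 (SE 0.13, adjusted p = 0.14). Without BFD replicate 1 they were 0.70 (adjusted p = 3.3e-05) and 0.76 (adjusted p = 0.00024), both past the threshold, and HFD against BFD was −0.74 (adjusted p = 0.00026). With NCD it was −0.06 (SE 0.13) and with HFD −0.04 (SE 0.13) over no odour. Olfr166 has 11.7% of its words in common with Olfr168, so part of its counts could be exchanged with that gene.

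Olfr167, which lies between Olfr166 and Olfr168, had pulldown levels of 10.6 to 13.9 CPM without odour, 14.0 to 16.8 with NCD, 12.7 to 18.3 with BFD and 15.4 to 19.4 with HFD. On the log2 scale its fitted change over no odour was 0.33 (SE 0.13, adjusted p = 0.098) with NCD, 0.19 (SE 0.14, adjusted p = 0.35) with BFD and 0.36 (SE 0.14, adjusted p = 0.071) with HFD, so the immediate neighbour of Olfr168 had no difference past the threshold. Olfr164 and Olfr165, 89.9% identical to each other, were low, with pulldown levels of 0.487 to 1.70 CPM in all pools. Olfr164 was higher in all 5 HFD pulldowns (1.13 to 1.70 CPM) than in every other pool (at most 1.12 CPM), as were 9 of 908 receptors (0.991%), with 30 to 55 counts behind the HFD values. It had a log2 fold change of its ratio of 0.89 (SE 0.27, edgeR adjusted p = 0.026) with HFD and 0.66 (SE 0.28, edgeR adjusted p = 0.095) with BFD over no odour. Its input with BFD was lower than without odour (−0.53, SE 0.18, edgeR adjusted p = 0.020), and in the pulldowns alone the BFD value was 0.11. For Olfr165 the changes of the ratio over no odour were −0.02 with NCD, 0.29 with BFD and 0.15 with HFD. Their SE of 0.36 to 0.38 were too wide to read a direction.

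**Figure D4:**
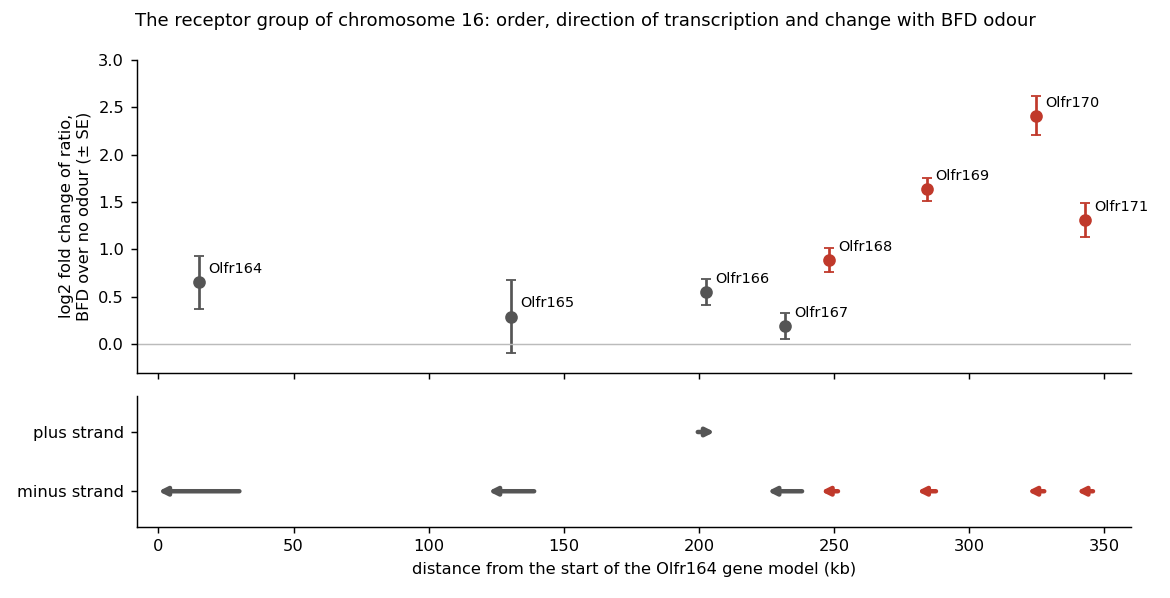
Order of the 8 receptors along chromosome 16 as distance in kb from the start of the Olfr164 gene model (horizontal axis), with arrows for the direction of transcription (bottom) and the log2 fold change ± SE of the pulldown-to-input ratio with BFD over no odour (top). The 4 picked genes (red) lie together at one end, with values of 0.89 to 2.41, and the neighbours (grey) have values of 0.19 to 0.66.

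The genes with a pattern most like that of the cluster were ranked by Pearson's r between their log2 ratio and the mean log2 ratio of the 4 over the 21 pools. The first 5 were Olfr721-ps1 on chromosome 14 (r = 0.903), Olfr1301 on chromosome 2 (r = 0.882), Serpine2, a secreted inhibitor of serine proteases (r = 0.867), Olfr166 (r = 0.850) and Clptm1 (r = 0.848). Spearman's rho for them was 0.751, 0.936, 0.718, 0.519 and 0.723. These genes were picked by their likeness to a pattern that was itself picked, so the values of the genes not tested as neighbours are given without a p, and all points share their pools.

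Olfr1301, from another receptor cluster, had a log2 ratio of −0.67 ± 0.17 (SD, n = 5) without odour, −0.44 ± 0.13 (n = 6) with NCD, 0.05 ± 0.17 (n = 5) with BFD and −0.34 ± 0.15 (n = 5) with HFD. Its log2 fold change with BFD over no odour was 0.72 (SE 0.11), and 0.75 without BFD replicate 1, 0.49 with library totals in place of TMM scaling and 0.42 in the pulldowns alone. Olfr721-ps1, annotated as protein coding despite its pseudogene name, had fitted values over no odour of 0.88 (SE 0.16) with BFD (0.98 without replicate 1), −0.02 (SE 0.15) with NCD and −0.02 (SE 0.16) with HFD. Serpine2 and Clptm1, which are not receptors, had BFD values of 0.30 (SE 0.07) and 0.30 (SE 0.08), and 0.34 and 0.37 without BFD replicate 1. With library totals both were 0.076, and in the pulldowns alone they were 0.14 and 0.21. Ranked by rho instead of r, 1 of the first 5 genes, Olfr1301, was shared.

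The genes of the cascade below the receptors were measured as a list. Of 20 olfactory transduction genes, 2 rose in their pulldown-to-input ratio with BFD over no odour and none fell. The median log2 fold change was 0.10 beside 0.00 over all genes, of which 522 of 21168 (2.47%) were called higher and 1.32% lower. At an unadjusted edgeR p under 0.05 there were 9 of the 20, beside 33.6% of all genes. With NCD 0.359% of all genes were called higher and 0.165% lower, and with HFD 0.699% and 0.52%. The 2 genes were Omp, the olfactory marker protein (0.64, SE 0.10, adjusted p = 0.00019), and Gng13, a G protein gamma subunit (1.33, SE 0.24, adjusted p = 0.00061). Gnb1, the G protein beta subunit, had 0.43 (SE 0.09, adjusted p = 0.0012). Without BFD replicate 1 the 3 values were 0.70, 1.50 and 0.47, with an adjusted p of 2.6e-05, 0.00012 and 0.00037 by edgeR. In the pulldowns alone, without the inputs, they were 0.20 (edgeR adjusted p = 0.086), 0.23 (edgeR adjusted p = 0.27) and 0.01 (edgeR adjusted p = 0.92), so neither the Omp nor the Gng13 call held there. Most of the rise in these ratios was thus not seen in the pulldown level itself. Over all alternatives Omp was called in 26 of 31 and Gng13 in 20 of 31. The Omp call was also lost with library totals (0.41, adjusted p = 0.0033) and without BFD replicate 2 or 3 (adjusted p = 0.0011 in both), and the Gng13 call without any of BFD replicates 2 to 5 or no odour replicates 2, 3, 4 and 6 (1.19 to 1.39, adjusted p of 0.0012 to 0.0027). None of the 20 passed with NCD or HFD by edgeR, against 7 and 8 at an unadjusted p under 0.05 (27.9% and 29.6% of all genes were under it) and 1 each by DESeq2 with the same design, and the medians were 0.04 and 0.03. Between the diets none passed, where the share of all genes called was 0.00945% (higher with BFD than NCD), 0.00472% and 0.0189% (higher and lower with HFD than NCD) and 0.0378% (lower with HFD than BFD), and 3 (BFD over NCD), 0 (HFD over NCD) and 5 (HFD over BFD) had an unadjusted p under 0.05, beside 7.24%, 4.62% and 8% of all genes.

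Of 17 activity-dependent genes, which neurons transcribe soon after firing, Btg2, an antiproliferative early gene, rose in its pulldown-to-input ratio with BFD odour (0.63, SE 0.11, edgeR adjusted p = 0.00027). The ratio of Arc, a synaptic immediate early gene, fell by 0.97 (SE 0.20, edgeR adjusted p = 0.0010). The Arc call with BFD was at the edge of the threshold and was kept in 7 of 31 alternative settings. It was lost without any 1 of the BFD or no odour pools, at values from −1.07 to −0.74, and without BFD replicate 1 the value was as large (−0.97, adjusted p = 0.0011). With HFD odour the ratio of Arc fell by 1.12 (SE 0.20, edgeR adjusted p = 0.00060), and with NCD its value was −0.79 (SE 0.19, edgeR adjusted p = 0.0083). The HFD call was kept in 22 of 31 alternatives and lost without any 1 of the HFD pools or no odour replicate 2 or 6 (−1.15 to −1.09, adjusted p of 0.0012 to 0.0019). In the pulldowns alone Arc was −0.17 (edgeR adjusted p = 0.29) with BFD and −0.25 (edgeR adjusted p = 0.086) with HFD, so neither call held there. Most of the fall in its ratio was thus not seen in the pulldown level itself. Btg2 was 0.45 (adjusted p = 3.8e-05) in the pulldowns alone and 0.70 without BFD replicate 1, and its call was lost with library totals (0.40, adjusted p = 0.0049) and without BFD replicate 2, 3 or 5 (0.55 to 0.63, adjusted p of 0.0010 to 0.0014). The medians of the 17 genes were 0.14 with NCD, 0.15 with BFD and 0.11 with HFD over no odour. With NCD none passed by edgeR or by DESeq2 with the same design, and 7 had an unadjusted p under 0.05, beside 27.9% of all genes. With BFD 6 and with HFD 5 had an unadjusted edgeR p under 0.05, beside 33.6% and 29.6% of all genes. Between the diets none passed by edgeR. There 2 (BFD over NCD), 0 (HFD over NCD) and 1 (HFD over BFD) were under 0.05 unadjusted, beside 7.24%, 4.62% and 8% of all genes.

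**Figure D5:**
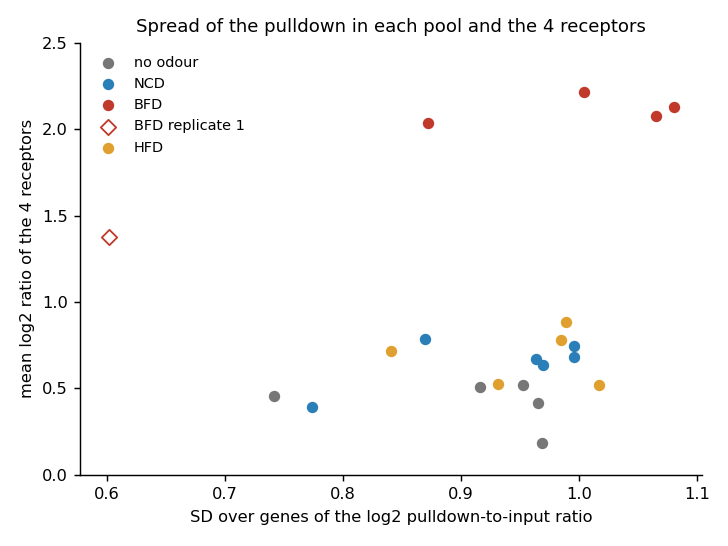
Mean log2 ratio of the 4 receptors (vertical axis) against the SD of the log2 pulldown-to-input ratio over all tested genes (horizontal axis), 1 point per pool. BFD replicate 1 (open diamond) has the lowest SD, 0.601, and a mean of 1.37, between the other BFD pools (2.03 to 2.22) and the 16 pools of the other groups (at most 0.883).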

How the data were processed

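Main olfactory epithelium of 21 pools was measured as a pS6 pulldown and an input library per pool. Per the labels and the study's methods, RNA was amplified with the Ovation RNA-seq V2 kit, made into Nextera XT libraries and sequenced as paired reads, and the authors estimated counts per gene with Salmon on GRCm38; the annotation release is not given in the sources used here. The deposited values are estimated counts, which divide reads among similar genes, and were rounded to whole numbers here. Groups came from the sample labels. Positions are from GENCODE M21.

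Counts were fitted with edgeR 4.0.16 (R 4.3.3; TMM, robust quasi-likelihood, filterByExpr with a minimum count of 10) over 42 libraries, with a term for each pool and a pulldown term for each odour. Of 44674 genes, 21168 were tested, with Benjamini-Hochberg adjustment over all of them and a threshold of 0.001. The fitting scripts were tested on simulated data. Log2 ratios per pool used a prior count of 2. Precision comes from the number of pools and from depth (24839555 to 36781553 counts per library). The members and gene lists were chosen with earlier results of these data known. Named genes were the 4 receptors, other receptors within 1 Mb, the 5 genes of most similar pattern, and called or lowest-p genes of 2 lists. The rule also asked for the receptors of highest protein identity; identity of coding bases was used in its place. Alternatives were DESeq2 1.42.0, other scaling, filters and prior count, pulldowns alone, only the groups compared, other pool terms, summed counts and leaving out each pool.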

Additional observations from a re-analysis of the deposited data

Results flagged for a closer look

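Of 96 sets of values tested (8 receptors, 3 measures, 4 odour groups), 10 held a pool far from the others of its group by Dixon's criterion, which flags about 1 in 20 groups by chance. BFD replicate 1 accounted for 4 of them. In its pulldown, Olfr168 was at 30.02 CPM (median of the other BFD pools 55.1), Olfr170 at 16.7 CPM (32.0) and the neighbour Olfr167 at 12.7 CPM (17.1), and the log2 ratio of Olfr167 was 0.72 (1.29). In no odour replicate 4, the input of Olfr169 was 14.3 CPM (others 10.9), its log2 ratio 0.070 (0.51) and the input of Olfr164 2.12 CPM (1.55). The remaining values were the log2 ratio of Olfr169 in NCD replicate 2, 0.57 (0.94), the input of Olfr171 in HFD replicate 3, 4.65 CPM (5.68), and the log2 ratio of Olfr166 in HFD replicate 2, 0.73 (1.04).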

How the results depend on the processing

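None of the called genes named changed sign, nor did the median of the 4 receptors in any comparison with BFD. Over 31 alternatives the median log2 fold change of the 4 receptors ranged from 1.24 to 1.61 for BFD over no odour, 0.97 to 1.19 for BFD over NCD and −1.17 to −0.83 for HFD over BFD. Its lowest value, 1.24, came with library totals in place of TMM, which shifted the median of all genes by −0.23. With pulldown libraries only, HFD over no odour was 0.42 in place of 0.20, and with library totals it was 0.075 and NCD over no odour 0.060 in place of 0.21. The median of HFD over NCD, 0.04, ran from −0.04 (without HFD replicate 1) to 0.24 (pulldowns only). Uncalled neighbour values near 0 also changed sign when 1 pool was left out: over no odour, Olfr166 ran from −0.14 to 0.01 with NCD and −0.12 to 0.04 with HFD, Olfr165 from −0.27 to 0.28 with NCD and −0.08 to 0.45 with HFD.

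Counts of receptors called over no odour (NCD 17, BFD 34, HFD 12) became 99, 126 and 102 at an adjusted p under 0.05, 10, 19 and 7 with library totals, 46, 60 and 66 with pulldowns only, and 39, 58 and 44 with DESeq2 on the ratio of both libraries (divided DESeq2). DESeq2 with the same design gave 30 for NCD and 25 for HFD, and fitting only the groups compared gave 4 for BFD and 4 for HFD. Leaving out 1 pool gave 10 to 24, 21 to 46 and 7 to 20.

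Of the 4 neighbours, 1 was called with BFD over no odour at 0.05, with no filter, with pulldowns only and with divided DESeq2, 1 with HFD over no odour at 0.05 and with pulldowns only, 1 with BFD over NCD with pulldowns only and divided DESeq2, and 1 with HFD over BFD with pulldowns only. Leaving out 1 pool gave 0 to 1 for each comparison that involves BFD. The receptors called over no odour also grew in number at 0.05, with pulldowns only and with divided DESeq2. Nothing is therefore read from these calls about the neighbours.

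Transduction genes called were 3 (NCD), 7 (BFD) and 3 (HFD) at 0.05, 3 (NCD) and 1 (HFD) with pulldowns only, 1 (NCD) and 0 (BFD) with only the groups compared, 1 (NCD) and 1 (HFD) with DESeq2 of the same design, and 1, 4 and 1 with divided DESeq2, with 0 to 4 for BFD when 1 pool was left out. Activity-dependent genes called were 3, 4 and 2 at 0.05, 8, 9 and 5 with pulldowns only, 0 (BFD) and 0 (HFD) with only the groups compared, 1 (BFD) with DESeq2 size factors, 1 (BFD) with the 4 receptors summed and 1 (NCD) with divided DESeq2. Leaving out 1 pool gave 0 to 2 for BFD and 0 to 1 for HFD. These counts join rises and falls, and the share of all genes called in each setting is not given here. The number of receptors called also changed by setting, so nothing is read from the counts about either list. The cause of these shifts was not tested.

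The labels do not say what a replicate number stands for, or whether it links pools across odours. With the replicate number as a block in place of the pool, the median for BFD over no odour was 1.50, and with no block 1.51. A pulldown's deviations from its group correlated with those of its own input by a median of 0.014 over 21 pools, against −0.004 for the input of another pool. Reads divided within near-identical genes, and depth of 92.3 to 190 input counts for Olfr171, limit the values of single genes.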
